A study of Mus musculus with 96 samples.

Results

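The hippocampus of injured mice treated with candesartan was compared with that of injured mice given vehicle at 29 days post-injury (dpi). The comparison rests on 8 of the 96 bulk RNA-seq libraries of the series, the 4 labelled as drug with TBI (TBI + CD) and the 4 labelled as vehicle with TBI (TBI + VH) in the 29 dpi table of counts, and it took in all genes. All mice were C57BL/6 males of 8-10 weeks. Injured mice received a controlled cortical impact (CCI), a blow by a piston to the brain through an opening on the left of the skull, and the hippocampus was taken from the injured side. Candesartan was given at 0.1 mg/kg/day, first by injection 6 h after the procedure and from 24 h by a pump under the skin, and vehicle mice received the carrier of saline with sodium carbonate. The 4 Sham + VH and 4 Sham + CD libraries of the same region and time point came from mice that had anesthesia and a scalp incision but no craniectomy, so that sham mice lack both the impact and the opening of the skull. The study kept the 4 RNA samples of highest quality in each group. The p-values measure the spread between these libraries.

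Candesartan blocks the type 1 receptor for angiotensin II, the effector peptide of the renin-angiotensin system, which raises blood pressure and also acts on vessels, neurons and glia of the brain. It is also described as a weak activator of PPAR gamma, a nuclear receptor that controls lipid genes. After a contusion, microglia turn from a surveying state to a phagocytic one that is marked by Trem2-dependent genes (the disease-associated microglia, or DAM, genes), and astrocytes turn reactive, with more of the filament proteins GFAP and vimentin.

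The libraries held 11283868 to 33521439 counts in TBI + VH and 23037224 to 33510448 in TBI + CD, and 16832 genes passed the filter on low counts. Markers of hippocampal neurons were present in all 8 libraries, at a summed level (CPM, the count scaled to library size) of 584 to 759 CPM in TBI + VH and 578 to 692 CPM in TBI + CD. Of these markers Prox1 was at 28.5 to 42.6 CPM in TBI + VH and 30.0 to 46.8 CPM in TBI + CD. It was at 46.4 to 70.9 CPM in the thalamic libraries of this time point, so it did not set the hippocampus apart. The other markers of the sum were lower in the thalamic libraries. Other tissue was present in unequal amounts. The 12 choroid plexus markers summed to 49.5 to 2315 CPM in TBI + VH and to 215.5 to 3660 CPM in TBI + CD, and were highest in TBI + VH replicate 2 and TBI + CD replicates 1 and 2. The 4 thalamic markers summed to 69.1 to 85.7 CPM in TBI + VH and to 82.7 to 167.9 CPM in TBI + CD, highest in TBI + CD replicate 1. Of these, Rora did not overlap between the groups, at 27.5 to 34.7 CPM against 37.8 to 53.6 CPM, and it was at 299 CPM or more in the thalamic libraries of this time point. The 3 blood markers summed to 3.67 to 59.1 CPM in TBI + VH and to 7.72 to 104.4 CPM in TBI + CD. In bulk RNA, fewer cells of a type and less RNA per cell cannot be told apart.

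No gene passed the adjusted test of the difference between TBI + CD and TBI + VH. The quasi-likelihood test of edgeR called 0 of the 16832 genes (0%) at a false discovery rate (FDR) under 0.05 with an absolute log2 fold change above 0.32, and the smallest FDR was 0.0765. An unadjusted p under 0.05 was reached by 893 genes, of which 509 were lower in TBI + CD (3.02% of the genes tested) and 384 higher (2.28%). The 4 libraries of each group did not overlap for 302 genes with lower values in TBI + CD (1.79%) and for 255 with higher values (1.51%). DESeq2, the tool of the study's own analysis, called 4 of 16828 genes (0.0238%), with Gpnmb, Lyz2 and Malat1 lower in TBI + CD and the transcript GU332589 higher. The 95% interval of the log2 fold change lay within ±1 for 89.8% of the genes and within ±0.32 for 51.7%. In genes over 100 CPM the interval lay within ±0.32 for 90.1%, and in genes from 1 to 10 CPM for 12.1%, so that small differences were not detectable in the low genes.

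The 8 leading genes with lower values in TBI + CD were taken by p among genes whose groups did not overlap, and they are described here one by one. Gpnmb encodes a transmembrane glycoprotein of lysosome-rich phagocytes (chromosome 6, 49036546 to 49070929, GRCm38). It was at 20.8, 17.7, 33.2 and 19.8 CPM in TBI + VH and at 13.9, 12.3, 11.2 and 9.84 CPM in TBI + CD. Every TBI + CD value was under every TBI + VH value, and all were above the Sham + VH mean of 4.52 CPM ± 0.567 (SD, n = 4). The log2 fold change was -0.95 ± 0.172 (SE), with an edgeR FDR of 0.219 and a DESeq2 FDR of 0.00162. Lyz2 encodes lysozyme 2 of macrophages and activated microglia (chromosome 10, 117277331 to 117282321). It was at 39.5, 27.5, 49.9 and 49.6 CPM in TBI + VH and at 20.2, 26.5, 21.4 and 19.0 CPM in TBI + CD. The groups did not overlap, with a narrow gap between TBI + VH replicate 2 and TBI + CD replicate 2. The log2 fold change of Lyz2 was -0.94 ± 0.202, with an edgeR FDR of 0.745 and a DESeq2 FDR of 0.0368. Lyz2 has a near-identical neighbour, Lyz1, and how reads that fit both were counted is not given in the sources used here.

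Clec7a, which encodes the glucan receptor dectin-1 and is a DAM gene, was at 4.45, 3.76, 5.26 and 6.01 CPM in TBI + VH and at 2.06, 2.73, 2.90 and 2.01 CPM in TBI + CD. Its groups did not overlap either, and both stood above the Sham + VH mean of 0.474 CPM ± 0.227. The log2 fold change was -1.01 ± 0.258 (edgeR FDR 0.882). S100a4, a calcium-binding protein of macrophages and other motile cells, was at 5.12, 4.64, 15.8 and 5.63 CPM in TBI + VH and at 2.75, 3.08, 3.29 and 3.69 CPM in TBI + CD. TBI + VH replicate 3 was far above the others, and the log2 fold change of -1.27 ± 0.297 (edgeR FDR 0.745) was -0.69 without that library. Mpeg1, the macrophage-expressed perforin-2, was at 46.2, 39.7, 51.5 and 53.8 CPM against 31.7, 35.1, 37.9 and 38.1 CPM, and its log2 fold change was -0.43 ± 0.0991. Lower values in every TBI + CD library follow from the way these genes were chosen, and none of the 3 passed the adjusted test.

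The other leading genes with lower values were Malat1, Adgrl3 and Cfap97. Malat1, an abundant nuclear long non-coding RNA (chromosome 19, 5795690 to 5802672), was at 1215, 1189, 1232 and 1450 CPM in TBI + VH and at 1083, 937, 822 and 714 CPM in TBI + CD. The log2 fold change of Malat1 was -0.52 ± 0.105, with an edgeR FDR of 0.563 and a DESeq2 FDR of 0.00455. Unlike Gpnmb and Lyz2, it was not higher in injured vehicle mice than in sham mice, and its Sham + VH mean was 1502 CPM ± 151. Among the nuclear long RNAs listed with it, Miat and Mirg had higher values at an unadjusted p under 0.05, against 2.28% of all genes, with log2 fold changes of 0.17 ± 0.0718 and 0.19 ± 0.0786, and Meg3 and Snhg11 had values of 0.097 and 0.17. Adgrl3, a latrophilin receptor of synapses, was at 91.5, 95.6, 112 and 92.8 CPM against 81.3, 81.5, 76.7 and 78.7 CPM (log2 fold change -0.30 ± 0.0688). Cfap97, named for cilia and flagella, was at 31.9 to 36.8 CPM against 29.0 to 30.6 CPM (log2 fold change -0.22 ± 0.0553, and -0.10 with all libraries thinned to the smallest total).

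Among genes with higher values GU332589 stood first. The table gives it by this name alone. It was at 7.34, 7.09, 7.83 and 7.33 CPM in TBI + VH and at 12.2, 12.1, 12.9 and 14.8 CPM in TBI + CD. The gap between the groups was wider than the range within the TBI + VH group and wider than that within the TBI + CD group. The log2 fold change of GU332589 was 0.81 ± 0.122 (95% interval 0.55 to 1.07), with an edgeR FDR of 0.0765 and a DESeq2 FDR of 1.97e-05. In sham mice it was at 7.41 CPM ± 1.29 with vehicle and at 10.2 CPM ± 1.32 with candesartan, a log2 fold change of 0.50 ± 0.126 (unadjusted p 0.00101, edgeR FDR 0.941).

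The other 7 leading genes with higher values had smaller log2 fold changes. Epha8, an ephrin receptor, was at 4.07 to 5.60 CPM in TBI + VH and 6.52 to 7.80 CPM in TBI + CD (log2 fold change 0.49 ± 0.123). Olig2, the transcription factor of the oligodendrocyte lineage, was at 26.2, 22.1, 22.4 and 20.3 CPM against 31.0, 26.3, 33.8 and 28.1 CPM (log2 fold change 0.39 ± 0.102). C1qtnf4, a secreted protein of the C1q and TNF family, was at 61.0 to 66.2 CPM against 71.8 to 81.0 CPM. Pagr1a, which associates with a histone methyltransferase complex, was at 40.5 to 47.9 CPM against 52.4 to 54.6 CPM. Fah, the last enzyme of tyrosine breakdown, was at 21.1 to 24.0 CPM against 25.9 to 27.7 CPM. Clasrp, a protein linked to splicing, was at 65.3 to 80.3 CPM against 82.6 to 87.7 CPM, and Stk11, the kinase LKB1, at 52.5 to 57.1 CPM against 62.0 to 63.9 CPM. C1qtnf4 and Pagr1a had log2 fold changes of 0.25 ± 0.0571 and 0.27 ± 0.0683, and Fah, Clasrp and Stk11 of 0.23 ± 0.059, 0.21 ± 0.0532 and 0.19 ± 0.0489.

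**Figure D1:**
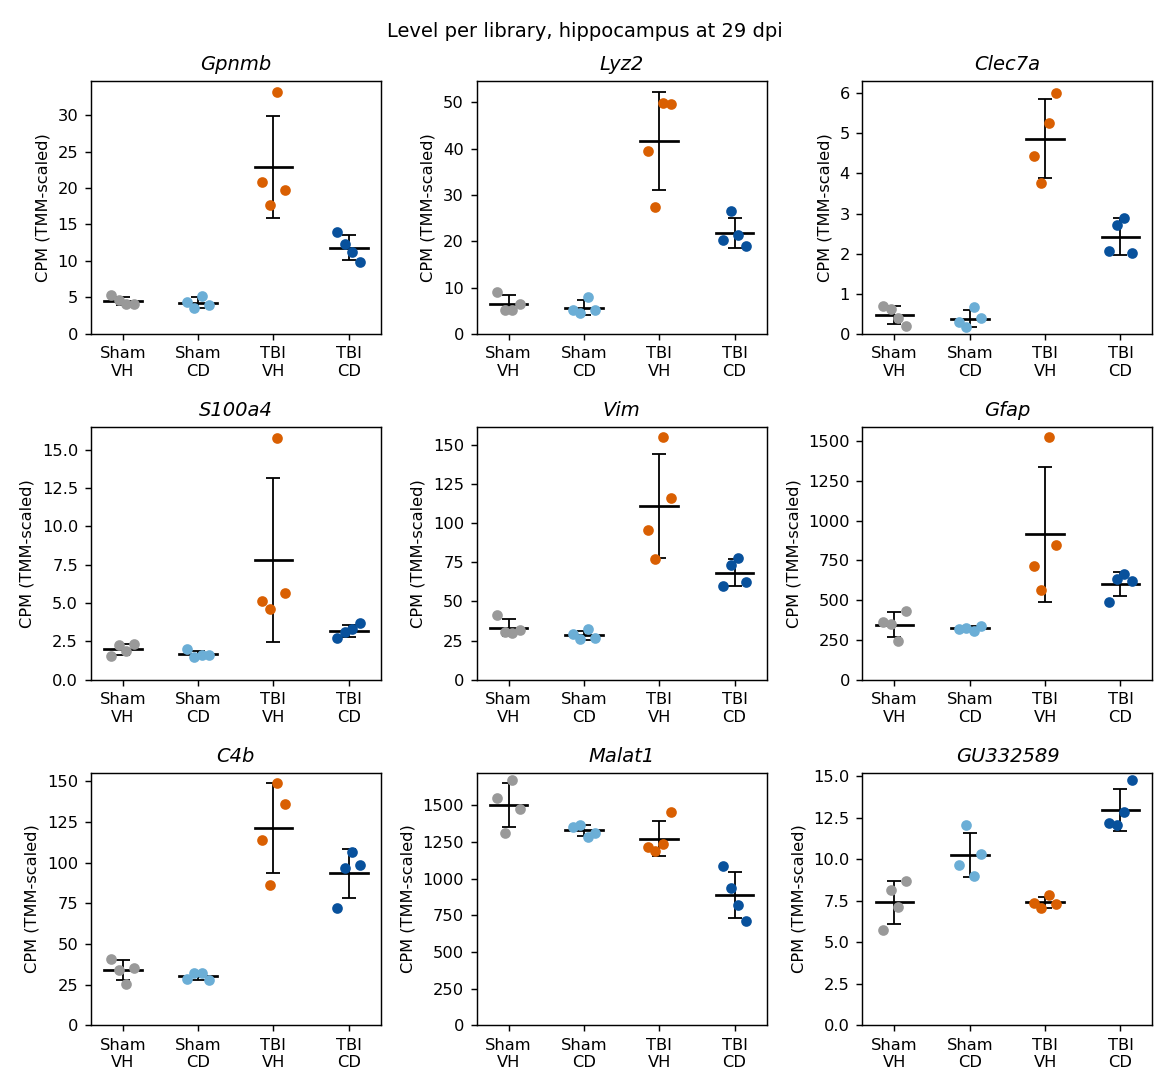
CPM of 9 genes in each of the 16 hippocampal libraries at 29 dpi, with 1 point per library, a bar for the group mean and whiskers for 1 SD (n = 4). Gpnmb, Lyz2 and Clec7a lay lower in TBI + CD than in TBI + VH with both above the sham groups, Malat1 was lowest in TBI + CD, and GU332589 had higher means with candesartan in sham and injured mice.

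The DAM genes lay lower in TBI + CD as a group. All 24 members tested of the 25 listed had a log2 fold change below 0, with a median of -0.31 beside -0.0013 over all genes. The unadjusted p was under 0.05 for 13 of the 24 in the lower direction and for 0 in the higher one, against 3.02% and 2.28% of all genes, and for 9 members the groups did not overlap, against 1.79%. With edgeR 0 members passed the adjusted test, and DESeq2 called 1, Gpnmb. In vehicle mice 13 of the 24 were higher after injury than in sham at an edgeR FDR under 0.05, against 0.541% of all genes. That contrast uses the same TBI + VH libraries as the drug contrast, so the 2 results are not independent. The mean log2 CPM of the list was 4.25, 4.07, 4.46 and 4.40 in the TBI + VH libraries and 3.90, 3.93, 3.99 and 3.74 in the TBI + CD libraries. These did not overlap, and all were above the 2.75 to 3.29 of Sham + VH.

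The receptor and the adaptor of the state were among the 13. Trem2, the lipid-sensing receptor, was at 14.5, 14.7, 14.6 and 18.0 CPM in TBI + VH and at 10.3, 12.9, 11.9 and 13 CPM in TBI + CD (log2 fold change -0.36 ± 0.113, unadjusted p 0.00532, edgeR FDR 0.882). Tyrobp, its signalling adaptor, had a log2 fold change of -0.28 ± 0.106 with groups that overlapped. Itgax, the integrin CD11c, was at 5.58, 2.71, 5.26 and 5.40 CPM in TBI + VH and at 2.75, 1.64, 3.94 and 1.41 CPM in TBI + CD (log2 fold change -0.98 ± 0.341), and the low TBI + VH replicate 2 made the groups overlap. Spp1, the secreted protein osteopontin, was at 32.9, 16.3, 37.2 and 25.2 CPM against 16.2, 21.0, 20.5 and 13.8 CPM (log2 fold change -0.64 ± 0.258). Cst7, an inhibitor of lysosomal proteases, and Cybb, the catalytic subunit of the phagocyte oxidase, had log2 fold changes of -0.86 ± 0.278 and -0.91 ± 0.336. The most abundant members differed less. Apoe, the lipid carrier that astrocytes also make, was at 2029 to 2508 CPM in TBI + VH and 1926 to 2232 CPM in TBI + CD (log2 fold change -0.074 ± 0.0973). The lysosomal proteases Ctsb and Ctsd had log2 fold changes of -0.14 ± 0.0522 and -0.19 ± 0.0992.

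In the list of homeostatic microglia 12 of 14 genes were below 0, and 1 was lower at an unadjusted p under 0.05, against 3.02% of all genes. The median log2 fold change was -0.065, and leaving out TBI + CD replicate 2 gave -0.13, where leaving out replicate 1 of that group gave -0.0065. That gene was Csf1r, the receptor on which microglia depend, at 120.2, 116, 127 and 126 CPM in TBI + VH and at 93.6, 119, 114 and 114 CPM in TBI + CD (log2 fold change -0.15 ± 0.0637). Without TBI + CD replicate 1, its lowest library, the log2 fold change was -0.082. Cx3cr1, the fractalkine receptor, had a log2 fold change of -0.11 ± 0.0841. P2ry12, the ADP receptor of surveying microglia, had one of -0.042 ± 0.0827, with a 95% interval from -0.22 to 0.13. Among 12 tested genes of infiltrating and border macrophages, Lyz2 and S100a4 had lower values at an unadjusted p under 0.05, against 3.02% of all genes, and the median was 0.035, or -0.24 without TBI + CD replicate 2. The border macrophage genes Stab1 and Mrc1, both scavenging receptors, had log2 fold changes of 0.08 ± 0.124 and 0.25 ± 0.206.

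In the complement list 6 of 14 members tested were lower at an unadjusted p under 0.05 and 0 were higher, against 3.02% and 2.28% of all genes, with a median log2 fold change of -0.21. C4b, the mouse complement component 4 (chromosome 17, 34728380 to 34743882), was at 114, 86.4, 149 and 136 CPM in TBI + VH and at 72.0, 96.5, 106 and 98.3 CPM in TBI + CD. The groups overlapped through TBI + VH replicate 2, and the log2 fold change was -0.38 ± 0.152 (unadjusted p 0.0231, edgeR FDR 0.882). C4b has a close paralog, C4a, with which reads may be shared. The 3 chains of the initiator C1q had log2 fold changes of -0.28 ± 0.118 for C1qa, -0.29 ± 0.114 for C1qb and -0.27 ± 0.113 for C1qc. C3ar1, the receptor of the C3a fragment, had one of -0.64 ± 0.225. Of the regulators of the cascade, Serping1 and Cd59a had values of 0.033 ± 0.217 and 0.44 ± 0.352. The count of 6 was 2 with a thalamic marker score as a covariate, 1 without TBI + CD replicate 1, 3 without TBI + VH replicate 3 and 0 without TBI + VH replicate 4.

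Genes of reactive astrocytes also lay lower. Of the 20 tested 19 had a log2 fold change below 0, and 12 had lower values at an unadjusted p under 0.05 and 0 higher, against 3.02% and 2.28% of all genes. The median was -0.39, and the groups did not overlap for 2 members, against 1.79% of all genes. Vim, which encodes vimentin (chromosome 2, 13573927 to 13582826), was at 95.9, 77.2, 155 and 116 CPM in TBI + VH and at 60.1, 73.1, 77.8 and 62.5 CPM in TBI + CD. The groups overlapped through TBI + VH replicate 2 and TBI + CD replicate 3, and the log2 fold change was -0.70 ± 0.16 (unadjusted p 0.000424, edgeR FDR 0.745, DESeq2 FDR 0.0603). Gfap, the astrocyte filament gene, was at 717, 563, 1526 and 849 CPM in TBI + VH and at 488, 629.9, 667 and 621 CPM in TBI + CD. TBI + VH replicate 3 stood far above the rest. The log2 fold change of Gfap was -0.60 ± 0.226 (unadjusted p 0.0163, edgeR FDR 0.882) and -0.24 without that library. Serpina3n, a secreted protease inhibitor, was at 108, 85.0, 183 and 123 CPM against 84.2, 92.1, 104 and 91.1 CPM (log2 fold change -0.43 ± 0.159), and its value was -0.19 without TBI + VH replicate 3. Homeostatic astrocyte genes were near 0, with a median of 0.0044 over 12 genes and 0 at an unadjusted p under 0.05. Among them were the glutamate transporter Slc1a2 (-0.019 ± 0.0609), the glutamine synthetase Glul (0.11 ± 0.0848) and the glycolytic enzyme Aldoc (0.059 ± 0.0838).

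The number of DAM and astrocyte genes at an unadjusted p under 0.05 moved with the libraries and with the thalamic markers. The 13 DAM genes were 8 without TBI + VH replicate 3, 8 without TBI + VH replicate 4, 7 with a thalamic marker score as a covariate and 6 with all libraries thinned to the smallest total. The 12 astrocyte genes were 4 without TBI + VH replicate 3, 5 without TBI + CD replicate 1 and 4 with the thalamic score. The medians were -0.30 for DAM and -0.30 for astrocyte genes with the thalamic score, and -0.36 and -0.52 without the 3 libraries rich in choroid plexus markers. Without TBI + VH replicate 3 they were -0.24 and -0.23. Spp1 had a log2 fold change of -0.39 with the thalamic score.

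**Figure D2:**
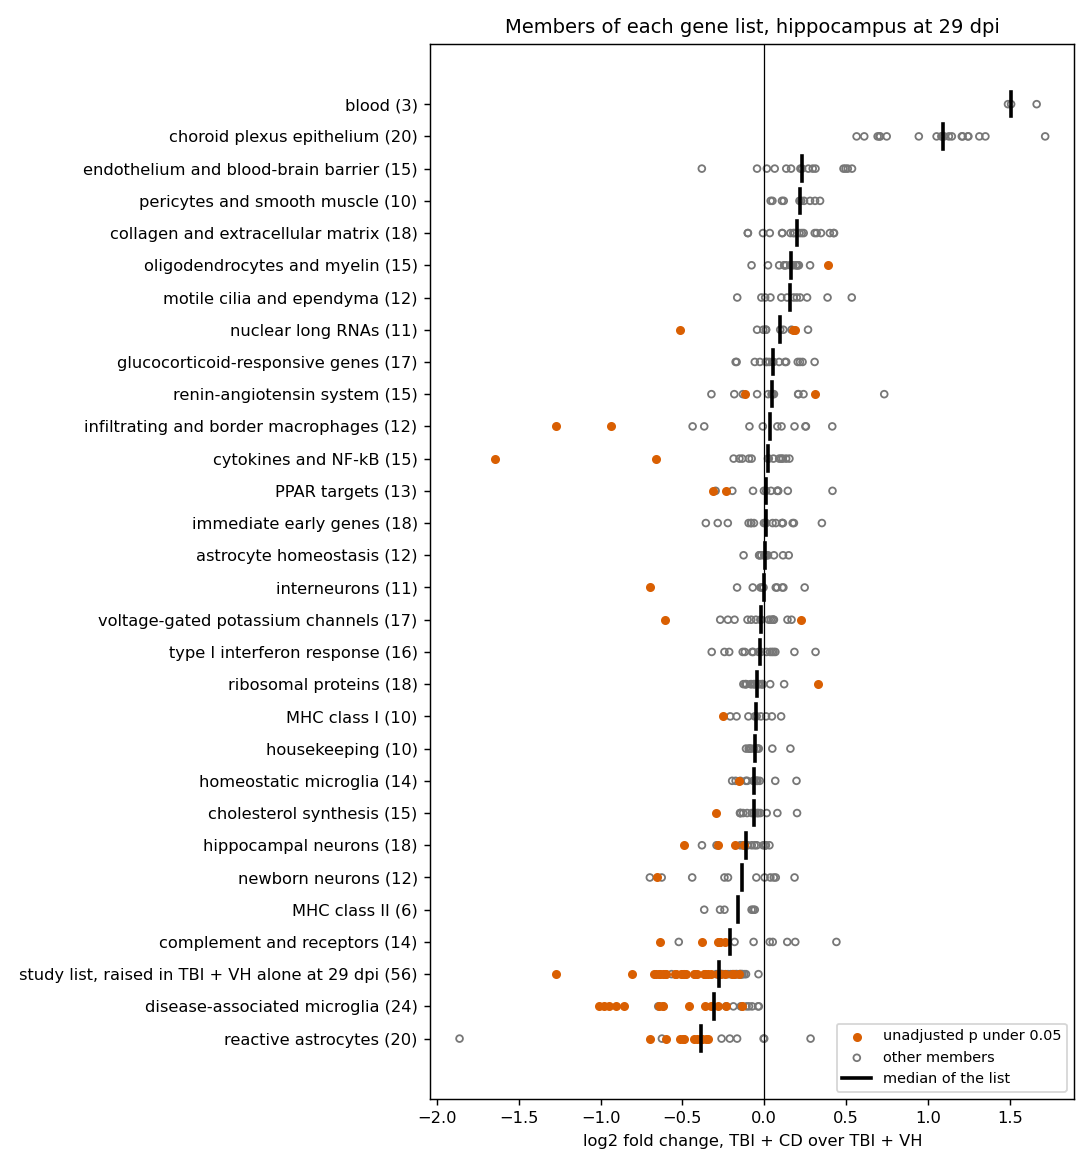
Log2 fold change of TBI + CD over TBI + VH for the tested members of each of the 30 gene lists (number tested in brackets), with filled points for an unadjusted p under 0.05, open points for the other members and a bar for the median. The reactive astrocyte and DAM lists had the lowest medians, -0.39 and -0.31, and the blood and choroid plexus lists the highest, 1.51 and 1.09, with 0 members at an unadjusted p under 0.05.

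**Figure D3:**
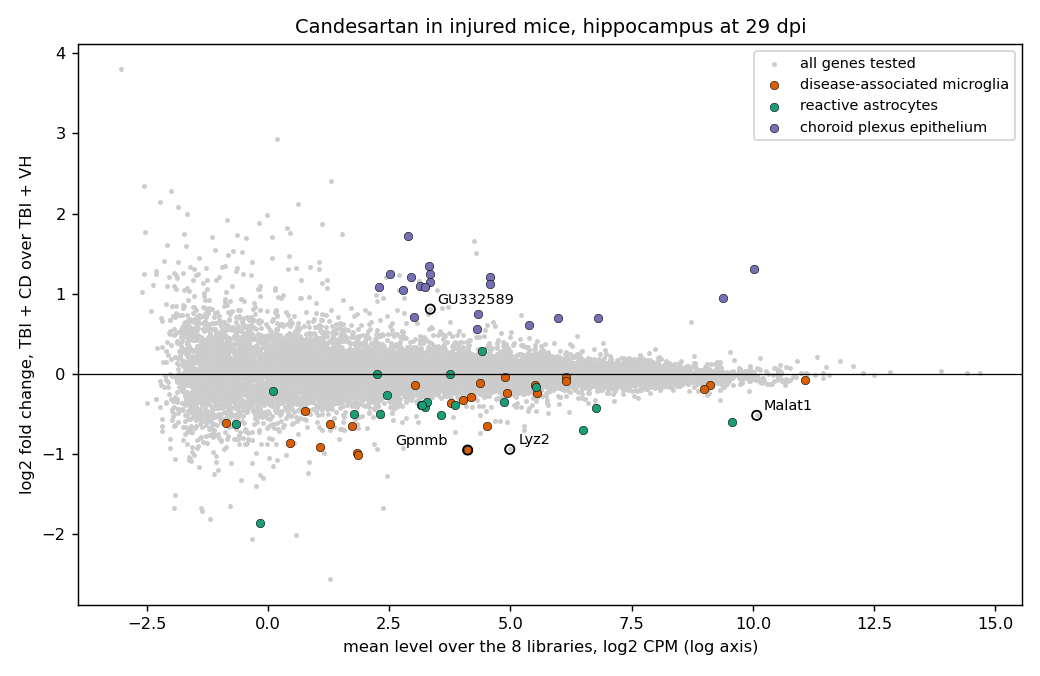
Log2 fold change of TBI + CD over TBI + VH against the mean level in the 8 libraries (log2 CPM) for the 16832 genes tested, with 3 lists in colour and the 4 genes that DESeq2 called in circles. All DAM genes and 19 of 20 reactive astrocyte genes lay below 0, and all choroid plexus genes above 0.

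A list of genes raised by injury with vehicle but not with candesartan came from these same libraries, and its direction is not independent evidence. All 56 members had a log2 fold change below 0 in TBI + CD, with a median of -0.28. Of these 31 had an unadjusted p under 0.05, where 3.02% of all genes were lower at that level, and the groups did not overlap for 15, against 1.79%. The choice of members used the same libraries, and nothing is read from these counts. The count of 31 was 18 without TBI + VH replicate 3, 18 without TBI + CD replicate 1, 15 with the thalamic score and 19 with thinned counts. Beside S100a4 the lower values included those of Gem (-0.81 ± 0.263), a small GTP-binding protein, and Cd84 (-0.67 ± 0.185), a receptor of leukocytes.

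Genes raised by injury at 3 dpi were chosen on other libraries. At 3 dpi 717 genes were higher in TBI + VH than in Sham + VH of the hippocampus at an edgeR FDR under 0.05 and a log2 fold change above 1, and 616 of them were tested at 29 dpi. Their median log2 fold change with candesartan at 29 dpi was -0.16, and 471 (76.5%) were below 0, beside 50.5% of all genes. The unadjusted p was under 0.05 for 93 in the lower direction and for 0 in the higher one, against 3.02% and 2.28% of all genes. The groups did not overlap in the lower direction for 44 (7.14%, against 1.79% of all genes). With the thalamic score as a covariate the median was -0.10. In sham mice the median of the same genes was -0.085. When genes above a log2 fold change of 0.32 at 3 dpi were taken, 1405 were tested and the median was -0.039.

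**Figure D4:**
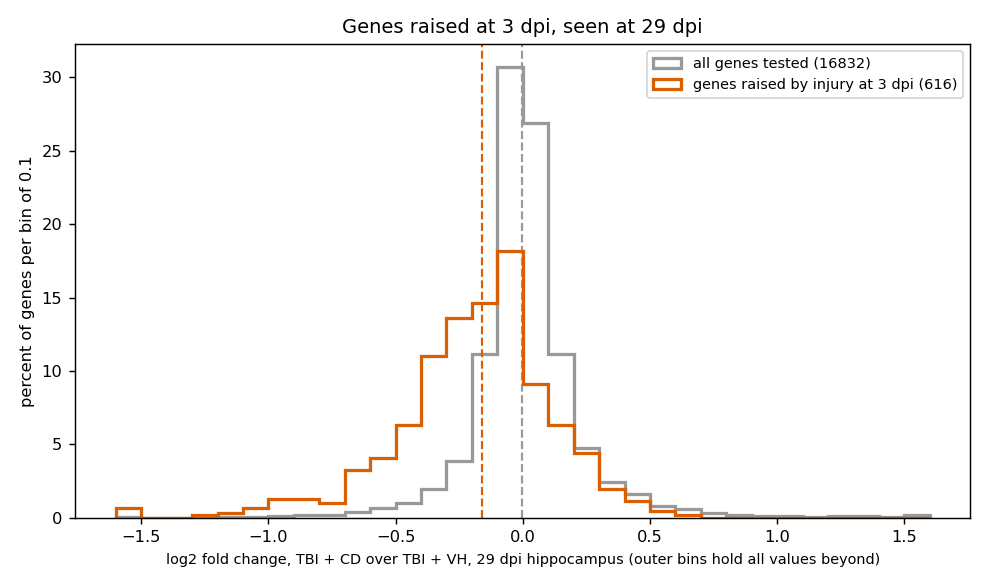
Distribution of the log2 fold change of TBI + CD over TBI + VH at 29 dpi, in percent of genes per bin of 0.1, for all 16832 genes and for the 616 tested genes raised by injury at 3 dpi, with dashed lines at the medians. The injury genes lay at lower values, with a median of -0.16 against -0.0013.

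In the other inflammatory lists 0 to 2 genes had lower values at an unadjusted p under 0.05, where 3.02% of all genes did. The type I interferon list had a median log2 fold change of -0.027 over 16 genes, with 0 at an unadjusted p under 0.05. That median was -0.20 with the choroid plexus score and -0.11 to 0.032 without 1 library at a time, and Ifi27 and Ifitm3 had values of 0.035 and -0.074. Of 10 MHC class I genes H2-D1, a classical antigen-presenting molecule, had an unadjusted p under 0.05, at a log2 fold change of -0.25 ± 0.0883, while B2m and Tapbp had values of -0.097 and -0.021. The 6 MHC class II genes tested were all below 0 with a median of -0.16 and 0 at an unadjusted p under 0.05. That median was -0.44 without the 3 libraries rich in choroid plexus markers, -0.43 with the choroid plexus score as a covariate, -0.080 with the thalamic score and -0.36 to -0.092 without 1 library at a time. Their errors were wide, as in Cd74 (-0.37 ± 0.363) and H2-Aa (-0.27 ± 0.487), with H2-DMa at -0.078 ± 0.0733. Of 15 cytokine and NF-kB genes tested, the chemokines Cxcl16 and Cxcl10 had lower values at an unadjusted p under 0.05, with log2 fold changes of -0.66 ± 0.197 and -1.64 ± 0.584. The alarmin Il33 and the NF-kB genes Nfkb1 and Nfkbia had values of 0.027, 0.091 and 0.13. The cytokines Il1b, Tnf and Il6 were too low to be tested.

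The renin-angiotensin list holds the drug's own pathway. Agtr1a, the type 1 angiotensin receptor, was at 0.503, 0.7, 0.675 and 0.704 CPM in TBI + VH and at 0.772, 0.528, 0.814 and 0.228 CPM in TBI + CD. These ranges overlapped at a level where the precision was low, with a log2 fold change of -0.13 and a 95% interval from -0.97 to 0.70. Mas1, the receptor of a shorter angiotensin peptide that is abundant in the hippocampus, was at 45.3, 45.9, 39.7 and 41.4 CPM against 44.6, 45.6, 39.7 and 47.6 CPM. Mas1 had a log2 fold change of 0.044, with a 95% interval from -0.12 to 0.20. Over the 15 renin-angiotensin genes tested the log2 fold changes ran from -0.32 to 0.73 with a median of 0.049, or -0.0082 to 0.11 without 1 library at a time. There was 1 higher at an unadjusted p under 0.05, the peptidase Mme (0.31 ± 0.144), and 1 lower, Atp6ap2, the prorenin receptor and proton pump subunit, against 2.28% and 3.02% of all genes. Atp6ap2 was at 184, 186, 194 and 188 CPM in TBI + VH and at 177, 174, 168 and 174 CPM in TBI + CD (log2 fold change -0.12 ± 0.041). The groups did not overlap, though the difference was small. In sham mice Atp6ap2 was also lower with candesartan, at a log2 fold change of -0.17 ± 0.0414 (unadjusted p 0.000844, edgeR FDR 0.941). The difference of injured minus sham was 0.048 ± 0.0582. The peptidases Ctsa and Thop1 had values of -0.044 and 0.023. Ace, which converts angiotensin I, ranged over 9.85 to 71.4 CPM in TBI + VH and 16.4 to 80.5 CPM in TBI + CD, highest in the 3 libraries rich in choroid plexus markers.

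Pparg itself was at 1.97, 1.487, 2.43 and 1.99 CPM in TBI + VH and at 1.501, 1.41, 2.12 and 1.90 CPM in TBI + CD (log2 fold change -0.20, 95% interval -0.81 to 0.42). Of 13 genes of the PPAR list tested 2 were lower at an unadjusted p under 0.05, the lipid droplet protein Plin2 (-0.31 ± 0.149) and the lipoprotein lipase Lpl (-0.23 ± 0.076), which is also a DAM gene, against 3.02% of all genes. The median was 0.012, with -0.097 under the choroid plexus score and -0.065 to 0.085 without 1 library at a time. The coactivator Ppargc1a and the mitochondrial dehydrogenase Acadl had log2 fold changes of 0.041 and 0.083. The cholesterol synthesis list had a median of -0.066 over 15 genes, and Hmgcs1 and Srebf2 had values of -0.10 and -0.024.

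The lists of hippocampal neurons, interneurons, newborn neurons and potassium channels had medians of -0.14 to -0.0049, and single members differed more. In the hippocampal neuron list 4 of 18 genes were lower at an unadjusted p under 0.05 and 0 higher, against 3.02% and 2.28% of all genes, and the median log2 fold change was -0.11. These were Grin2b (-0.49 ± 0.17), an NMDA receptor subunit, Cnih3 (-0.28 ± 0.0915), an AMPA receptor auxiliary protein, Ociad2 (-0.18 ± 0.0775) and Gria1 (-0.12 ± 0.0496), an AMPA receptor subunit. Camk2a, the abundant synaptic kinase, and Slc17a7, the vesicular glutamate transporter, had values of 0.0064 ± 0.0729 and -0.059 ± 0.072. The summed thalamic markers, given above, had a higher range in TBI + CD. With the thalamic score as a covariate the median of the list was -0.12, while it was -0.056 with the choroid plexus score and -0.072 without TBI + VH replicate 3. Of 17 voltage-gated potassium channel genes 1 was lower and 1 higher at an unadjusted p under 0.05, against 3.02% and 2.28% of all genes. The lower one was Kcnh7, an ERG-type channel, at 12.1, 7.70, 7.69 and 13.4 CPM in TBI + VH and at 9.05, 5.69, 7.06 and 5.59 CPM in TBI + CD (log2 fold change -0.60 ± 0.229, edgeR FDR 0.882), with groups that overlapped. The higher one was Kcnc1, a channel of fast-spiking neurons (0.22 ± 0.0826), and Kcna1 and Kcna2 had values of 0.04 and 0.052.

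The median of 11 interneuron genes was -0.0049, and it was 0.084 without TBI + VH replicate 2 and 0.10 without the 3 libraries rich in choroid plexus markers. In this list the neuropeptide Npy (-0.70 ± 0.281) was lower at an unadjusted p under 0.05, and Gad1, Cck and Sst were at -0.071, 0.12 and 0.078. For this list and the next, the 1 gene lower at that level stands beside 3.02% of all genes. The median of 12 genes of newborn neurons was -0.14, or -0.20 to -0.016 without 1 library at a time, with Draxin (-0.66 ± 0.23), an axon guidance protein, as the single gene at an unadjusted p under 0.05, and with Tubb3, Stmn1 and Calb2 at -0.049, 0.18 and 0.07. The immediate early genes, which report recent neuronal activity, had a median of 0.0088 over 18 genes, which was -0.048 to 0.14 without 1 library at a time and -0.12 without the 3 libraries rich in choroid plexus markers, and Arc, Egr1 and Egr3 had values of -0.08, 0.051 and 0.07. The glucocorticoid-responsive genes had a median of 0.051 over 17 (-0.044 without TBI + CD replicate 3), with Mt1, Per1 and Sgk1 at -0.17, 0.016 and 0.23. The immediate early and glucocorticoid lists each had 0 genes at an unadjusted p under 0.05.

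Genes of oligodendrocytes and vessels had medians above 0 without passing a test. Of 15 oligodendrocyte genes 14 were above 0, with a median of 0.16, and Olig2 alone had an unadjusted p under 0.05, where 8338 of the 16832 genes tested were above 0 and 2.28% were higher at that p. The myelin genes Mbp and Mobp had log2 fold changes of 0.21 ± 0.126 and 0.28 ± 0.141. Of 15 endothelial genes 13 were above 0 (median 0.23), of 10 pericyte genes 10 (median 0.22) and of 18 collagen and matrix genes 15 (median 0.20), and each of these lists had 0 genes at an unadjusted p under 0.05. Leaving out 1 library at a time gave medians of 0.050 to 0.29 for the oligodendrocyte list, 0.10 to 0.44 for the endothelial, 0.064 to 0.36 for the pericyte and 0.052 to 0.37 for the matrix list. Without the 3 libraries rich in choroid plexus markers the matrix median was 0.020, and those of oligodendrocyte, endothelial and pericyte genes were 0.31, 0.37 and 0.31. Examples were the glucose transporter Slc2a1 (0.22 ± 0.138), the anion transporter Slco1a4 (0.16 ± 0.187) and the adhesion molecule Vcam1 (-0.044 ± 0.171). The pericyte genes Vtn, Rgs5 and Pdgfrb had values of 0.24 ± 0.14, 0.23 ± 0.188 and 0.039 ± 0.11, and the matrix genes Col4a2, Dcn and Col6a1 of 0.11 ± 0.0761, 0.16 ± 0.285 and -0.10 ± 0.318. Meningeal markers summed to 76.7 to 164.2 CPM in TBI + VH and to 120.9 to 208 CPM in TBI + CD, and their part in these values was not tested.

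The widest differences among the lists were in genes of choroid plexus and blood, and they followed single libraries. All 20 choroid plexus genes were above 0 with a median of 1.09 (0.50 to 2.67 without 1 library at a time) and 0 at an unadjusted p under 0.05. Ttr, the thyroxine carrier made by that tissue, ranged over 14.7 to 1968 CPM in TBI + VH and 176 to 3192 CPM in TBI + CD. Enpp2 and Igf2 had log2 fold changes of 0.94 ± 1.001 and 0.70 ± 0.614. The 12 genes of cilia and ependyma had a median of 0.16, whose sign turned without TBI + VH replicate 3 (-0.012), without TBI + CD replicate 1 (-0.056), without the 3 libraries rich in choroid plexus markers (-0.14) and with the thalamic (-0.016) and choroid plexus (-0.32) scores, with Foxj1, Rsph1 and Rsph4a at -0.018, 0.26 and 0.0053. The blood genes Hba-a2, Hbb-bs and Alas2 had log2 fold changes of 1.51, 1.66 and 1.49 and were highest in TBI + VH replicate 3 and TBI + CD replicates 3 and 4. The median of the blood list was 1.03 to 2.93 without 1 library at a time. Ribosomal protein genes had a median of -0.047 (-0.066 to -0.020 without 1 library at a time), with 1 of 18, Rps2, higher at an unadjusted p under 0.05 (0.33 ± 0.135, against 2.28% of all genes) and with Rpl4, Rplp1 and Rps3 at -0.031, -0.064 and -0.022. Housekeeping genes had a median of -0.054 over 10 (-0.092 to -0.014 without 1 library at a time), with Actb, Ywhaz and Sdha at -0.11, -0.089 and -0.034.

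Whether the difference was particular to injured mice was tested as the candesartan effect in injured minus that in sham mice. edgeR called 0 of 16832 genes (0%). Its lowest FDR was 0.513, 890 genes had an unadjusted p under 0.05, and DESeq2 called 4, Nab2, Rora, Lmo3 and Zic1. In sham mice alone edgeR called 0 of 16832 genes (0%), with 810 at an unadjusted p under 0.05, and DESeq2 called 3, Nab2, Arc and Egr4, all higher with candesartan. Of the 24 DAM genes 3 had a difference below 0 at an unadjusted p under 0.05, against 2.07% of all genes, and the median of the differences was -0.11. The median DAM log2 fold change with candesartan in sham mice was -0.055. Of the 20 astrocyte genes 2 had a difference below 0 and 1 above 0 at an unadjusted p under 0.05 (3.22% of all genes were above 0 at that level), with a median difference of -0.18. In sham mice 3 of these 20 were lower with candesartan at an unadjusted p under 0.05, against 3.07% of all genes. Of the 14 complement genes 0 had a difference at an unadjusted p under 0.05. Their median log2 fold change was -0.16 in sham mice beside -0.21 in injured mice, and the median difference was -0.059. For Gpnmb the log2 fold change in sham mice was -0.09 ± 0.201 and the difference -0.86 ± 0.264 (unadjusted p 0.0047, edgeR FDR 0.892). Clec7a was low in sham mice, at 0.474 CPM ± 0.227 with vehicle and at 0.38 CPM ± 0.212 with candesartan.

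The time after injury and the region were compared in the same way. At 3 dpi, when the drug had been given by injection alone, the DAM median in the hippocampus of injured mice was 0.044 and the reactive astrocyte median 0.027. The test of the 29 dpi effect minus the 3 dpi effect called 0 of 17181 genes (0%) by edgeR and 0 by DESeq2, while 615 had an unadjusted p under 0.05. It gave a difference below 0 at an unadjusted p under 0.05 for 6 of 24 DAM genes and 4 of 20 astrocyte genes, against 1.85% of all genes. The time points differ also in the route and duration of treatment, and these cannot be told apart from time.

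In the thalamus of injured mice at 29 dpi the medians with candesartan were above 0, at 0.42 for 23 DAM genes, 0.21 for 18 astrocyte genes and 0.63 for 14 complement genes. The test of the hippocampal minus the thalamic effect called 0 of 17528 genes (0%) by edgeR. The lowest FDR was 0.201, and 867 genes had an unadjusted p under 0.05. DESeq2 called 1 gene, the transglutaminase Tgm1. A difference below 0 at an unadjusted p under 0.05 was found for 15 of 24 DAM genes, 10 of 20 astrocyte genes and 7 of 14 complement genes, against 2.48% of all genes. For Gpnmb the log2 fold change with candesartan was -0.95 in the hippocampus and 2.22 ± 0.689 in the thalamus, and the difference was -3.14 ± 0.708 (unadjusted p 0.000127, edgeR FDR 0.692). For Trem2 it was -0.36 in the hippocampus and 0.77 ± 0.347 in the thalamus, with a difference of -1.11 ± 0.378 (unadjusted p 0.00642, edgeR FDR 0.938). In both genes the larger share of the difference lay in the thalamic values. Malat1 had lower values with candesartan in both regions, with log2 fold changes of -0.52 in the hippocampus and -0.50 ± 0.0911 in the thalamus (unadjusted p 5.5e-05, edgeR FDR 0.933), with a difference of -0.0095 ± 0.145. In the injured hippocampus at 3 dpi it was at 0.011 ± 0.117, and the difference of 29 minus 3 dpi was -0.54 ± 0.164 (unadjusted p 0.00253). For the sham hippocampus at 29 dpi the log2 fold change of Malat1 was -0.18 ± 0.105 (unadjusted p 0.109). These comparisons use the same 8 hippocampal libraries. The study dissected the regions from the brains it removed, but which hippocampal and thalamic libraries share a mouse is not given in the sources used here.

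**Figure D5:**
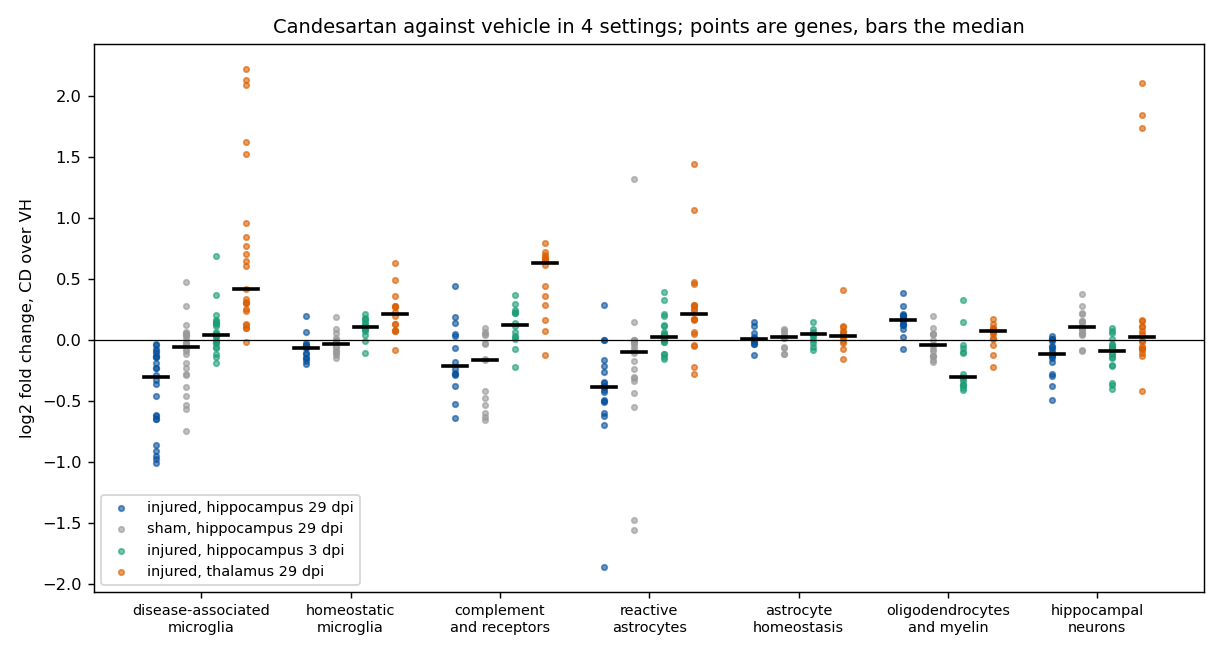
Log2 fold change of candesartan over vehicle for the members of 7 gene lists in injured and sham hippocampus at 29 dpi, injured hippocampus at 3 dpi and injured thalamus at 29 dpi, with 1 point per gene and a bar for the median. The DAM median was -0.31 in the injured hippocampus at 29 dpi, -0.055 in sham hippocampus, 0.044 at 3 dpi and 0.42 in the thalamus.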

How the data were processed

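RNA-seq libraries (TruSeq Stranded mRNA) of saline-perfused mice were aligned by the authors to mm10 with MapSplice and counted per gene with HTSeq 0.9.1, and the authors used DESeq2 1.16.1. The deposited values are raw counts per gene. The annotation, the strand setting and the treatment of reads shared by genes are not given in the sources used here. Positions are from GENCODE vM21 (GRCm38).

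Counts of the 16 hippocampal libraries at 29 dpi (6663629 to 38589791 per library) were fitted in edgeR 4.0.16 (R 4.3.3) with 4 groups, filterByExpr, TMM scaling and glmQLFTest, 2-sided, and p-values adjusted by Benjamini-Hochberg across the 16832 genes. SE is the log2 fold change over the root of F. CPM are TMM-scaled. DESeq2 1.42.0 was an alternative. All p-values under a gene's name are from edgeR unless DESeq2 is named. The scripts were tested on simulated data. The 32594 genes of the table included 8892 with no count in these libraries. Differences from 3 dpi and from the thalamus were fitted over 32 libraries each, treated as independent.

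Named genes were the 8 of lowest p in each direction, averaging 1 CPM or more and with groups that did not overlap, genes the study measured by qPCR or names for these groups, the 3 most abundant members of each list, and genes called in other tests. Some genes that this rule names are not reported here. Members named beyond this rule were chosen after their values were seen. The members and lists were chosen with earlier results of these data known. No deposited column was left without a sample. Alternatives were RLE scaling, no filter, thinned counts, the 8 libraries alone, a replicate block, a choroid plexus score, and each library left out. A thalamic score and the removal of 3 libraries were added after the data were seen.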

Additional observations from a re-analysis of the deposited data

Results flagged for a closer look

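In 218 groups of 4 values, from the library totals, the genes named and the summed tissue markers, 23 had a highest or lowest library that stood apart from the other 3 by more than Dixon's 95% limit (10.6%, where chance gives about 1 in 20 for independent groups). These groups are not independent, since genes of 1 tissue rise together in a library, and some genes were chosen on these values. The 10.6% is therefore no test of an excess. The values are CPM.

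In TBI + VH replicate 3 the library stood high for S100a4 (15.78, others 4.637 to 5.631), Hmgcs1 (281.9, others 180.2 to 197.2), Hba-a2 (29.95), Hbb-bs (28.26) and the summed blood markers (59.09, others 3.666 to 9.1). In TBI + VH replicate 2 it stood high for Ttr (1968), Enpp2 (1271), the summed choroid plexus markers (2315, others 49.51 to 390.7), Foxj1 (25.29) and Calb2 (47.69), and low for Itgax (2.712, others 5.262 to 5.578) and Gria1 (1219, others 1315 to 1329). TBI + VH replicate 4 was high for Trem2 (18.01, others 14.47 to 14.7) and Malat1 (1450, others 1189 to 1232). TBI + VH replicate 1 was high for Egr1 (141.8) and the summed hypothalamic markers (6.249) and low for Agtr1a (0.5032).

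Among the TBI + CD libraries, replicate 2 was high for Arc (136.9), Epha8 (7.796), Slco1a4 (36.67) and the summed meningeal markers (208.2, others 120.9 to 127.8), replicate 3 for Glul (1704, others 1513 to 1522) and replicate 4 for Clasrp (87.68, others 82.58 to 83.33).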

How the results depend on the processing

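The count of 0 genes called in TBI + CD against TBI + VH was 4 with DESeq2 and 1 (GU332589, FDR 0.00392) with the choroid plexus score as a covariate, and 0 under the other settings with all libraries or without those rich in choroid plexus markers (smallest FDR 0.0502 to 0.654). Without 1 library at a time it was 0 to 0. DESeq2 called 3 genes in sham mice, 4 for injured minus sham and 1 for hippocampus minus thalamus, where leaving out 1 library gave 0 to 1 (1, Tgm1, without thalamic TBI + CD replicate 2). The median of genes raised by injury was -0.039 with genes above 0.32, -0.10 with the thalamic score and -0.19 to -0.12 without 1 library at a time. The cause was not tested. The thalamic score and the removal of the 3 libraries rich in choroid plexus markers were chosen after the data were seen.

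The replicate numbers do not mark shared mice in the labels, and deviations of same-numbered libraries correlated at -0.0151, 0.306, 0.258 and 0.131, beside -0.279 to 0.259 for libraries of different numbers. With the replicate block 0 genes were called in each test, the median of genes raised by injury was -0.16, and genes at an unadjusted p under 0.05 numbered 1367 in place of 893. That number was 552 with the thalamic score and 1517 without TBI + VH replicate 2. Of the 107 genes named by the rule, 32 had an unadjusted p under 0.05 and 0 of these changed sign. The 32 include the leading genes of each direction, which were chosen for low p and for groups that did not overlap. Leaving out a library keeps such groups apart, so the unchanged sign of these genes was largely set by the choice. It is no test of their stability. Of the other 75 genes, 39 changed sign under at least 1 alternative. Of 510 list medians 5 moved by over 1 SD between libraries. The median SE was 0.370 under 1 CPM and 0.0637 over 100 CPM, and counting error and spread between libraries were not separated.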
